A study of Mus musculus with 6 samples.

Results

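The carbonic anhydrase genes described here are 10 genes of 1 family, Car1, Car2, Car3, Car4, Car7, Car8, Car9, Car12, Car13 and Car14, out of 19938 genes measured on arrays in 6 mouse colon tumours. They are 10 of the 16 carbonic anhydrase genes measured and were chosen with earlier results of these data known. Each was represented by 1 probe set that carries its symbol and no other. All mice were ApcMin/+, so that 1 copy of the tumour suppressor Apc was truncated, and all had 1 Dnmt1chip allele, a hypomorphic allele of the maintenance DNA methyltransferase gene. The second Dnmt1 allele was wild type in the 3 control tumours (Dnmt1chip/+) and the knockout allele c in the 3 hypomethylated tumours (Dnmt1chip/c), a genotype with less methylated satellite repeats according to the design text. The mice were hybrids of a C57BL/6 parent, which brought the c and ApcMin alleles, and a 129Sv4 parent, which brought the chip allele. At 6 weeks the mice received 2% dextran sodium sulfate, which damages the colon lining and promotes tumour growth there, and the tumours were collected when the mice were 20 weeks old. The knockout allele is in every cell of the animal, so it is not limited to tumour cells. The labels do not state that tumours of a group came from separate mice. In the sample descriptions all 3 hypomethylated tumours share 1 number, control replicates 1 and 2 share another, and control replicate 3 has its own. What the number stands for is not stated; if it names the animal, 1 mouse is compared with 2. Throughout, n counts tumours, and the SDs, SEs and p-values measure the spread among these 6 tumours and not among mice. No number occurs in both groups, so a difference between animals and a difference between genotypes cannot be told apart.

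Carbonic anhydrases are zinc enzymes that interconvert carbon dioxide and water with bicarbonate and a proton. In the colon they supply bicarbonate and protons to the exchangers of the surface epithelium, which absorb sodium and chloride. Some members work in the cytosol and others sit at the cell surface with the active site outside the cell, and members that lost a zinc-binding residue have no activity.

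The deposited values are centred, so that the median of the 6 tumours is 0 for each probe set. The level of a gene is not kept, and no order of abundance among the genes can be read from them. Where the groups lie apart, the highest value of one group and the lowest of the other are therefore mirror images around 0. Values are taken as log2, a base inferred from the data, and 6 arrays limit the precision. Dnmt1 itself differed by -0.87 (SE 0.06, limma, adjusted p = 3.13e-04), lower in all 3 hypomethylated tumours. The position of its probes relative to the mutated exons is not known here, so this value is no check of the genotypes.

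Of the 10 genes, 7 were higher in the hypomethylated tumours and none was lower (limma, p adjusted over all genes by Benjamini-Hochberg and under 0.05; no gene was lower at an unadjusted p under 0.05 either). Over all genes 10.7% were called higher and 21.3% lower. The higher genes were Car4, Car12, Car13, Car9, Car2, Car1 and Car8, with differences from 4.65 down to 1.37 on the log2 scale. Car3, Car14 and Car7 lay between 0.04 and -0.07 and did not pass. The median difference of the 10 genes was 1.82, 3.54-fold, against -0.01 over all genes. It is not a value of the whole family: the other 6 carbonic anhydrase genes on the array, described below, had a median of 0.05 and none was called. All 7 genes were at least 2-fold higher, as were 2.46% of all genes. In each of the 7 every hypomethylated tumour lay above every control tumour, a separation in that direction that 17.9% of all genes had. The exact permutation test over tumours, two-sided, gave p = 0.1 for each of the 7, the smallest that 3 against 3 allows. In bulk tumours a larger share of cells of a type and more RNA per cell cannot be told apart.

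**Figure D1:**
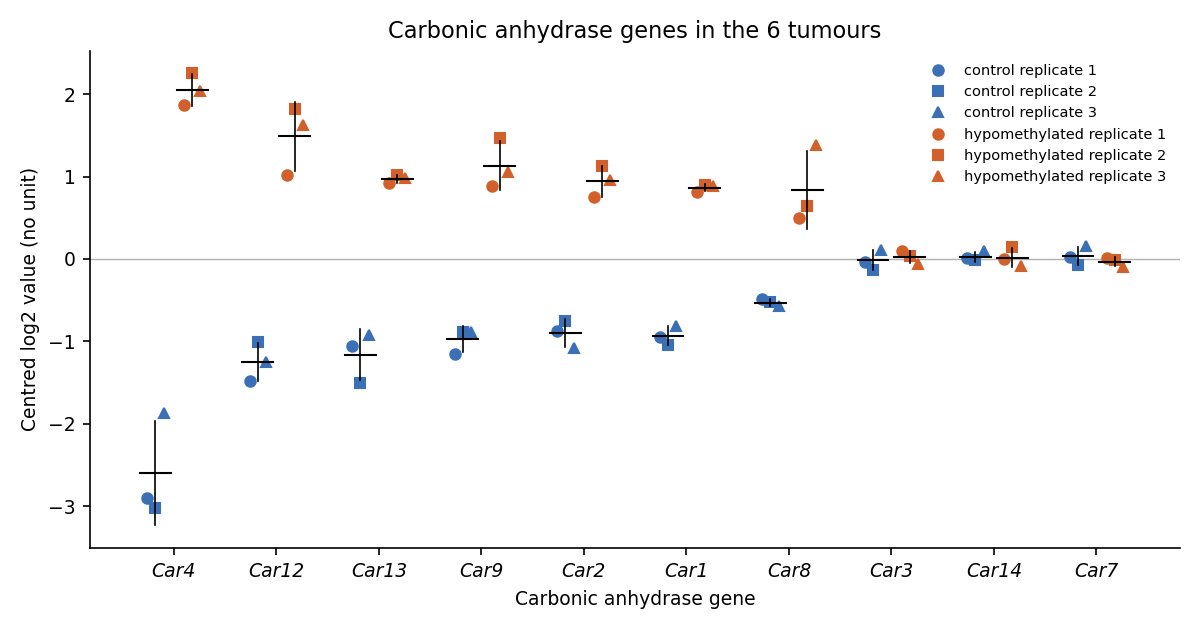
Centred log2 values of the 10 carbonic anhydrase genes (x axis, ordered by difference) in each of the 3 control and 3 hypomethylated tumours, with the group mean (horizontal line) and SD (vertical line). The groups lie apart for the 7 genes on the left, by the widest margin for Car4, and overlap for Car3, Car14 and Car7.

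The membrane-bound members held the largest and one of the smallest differences. Car4, an enzyme anchored by a lipid tail at the apical surface of colonocytes, had values of -2.90, -3.03 and -1.87 in control replicates 1 to 3 and 1.87, 2.25 and 2.03 in the hypomethylated tumours. The third control tumour was about 1 log2 unit above the other controls, and still 3.73 below the lowest hypomethylated tumour. Group means were -2.60 ± 0.64 and 2.05 ± 0.19 (SD, n = 3 tumours). Car4 rose by 4.65 ± 0.29 (SE), 25.1-fold with a 95% confidence interval from 15.5 to 40.5 (limma, adjusted p = 2.64e-04). Only 4 of the 19938 genes had a larger increase. Without control replicate 3 the difference was 5.01.

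Car12, a transmembrane enzyme of absorptive and secretory epithelia, had control values of -1.48, -1.01 and -1.25 and hypomethylated values of 1.01, 1.82 and 1.62. It rose by 2.74 ± 0.22 (SE), 6.66-fold (95% interval 4.68 to 9.48; limma, adjusted p = 3.91e-04). Car9, a transmembrane enzyme known as a target of the hypoxia-inducible factors in many tumours and present in normal gut epithelium, had control values of -1.16, -0.88 and -0.89. Its hypomethylated values were 0.88, 1.47 and 1.05. The increase of Car9 was 2.11 ± 0.16 (SE), 4.31-fold (95% interval 3.34 to 5.57; limma, adjusted p = 3.36e-04). For both genes the first control tumour was lowest and the second hypomethylated tumour highest.

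Car14, the remaining transmembrane member, known from kidney, liver and nervous tissue, had control values of 0.01, -0.02 and 0.10 and hypomethylated values of -0.01, 0.14 and -0.09. The groups overlapped, and the difference of -0.01 had a 95% interval from -0.19 to 0.17 (limma, adjusted p = 0.933). A change of Car14 as large as the smallest called one, that of Car8, lies outside this interval. Without a level, a gene at the floor of the array cannot be distinguished from an expressed gene that did not change.

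Promoter sequence is shown for the membrane-bound members, since the study altered DNA methylation and 3 of these 4 genes rose together while Car14 did not. Methylation was not measured here. RefSeq windows of 300 bases (GRCm38.p6; 250 before and 50 after the start) were matched for 5 of the 10 genes, Car4, Car7, Car9, Car12 and Car14. Capitals mark CpG, the dinucleotide that carries DNA methylation.
Car4, chr11:84957504-84957803, plus strand: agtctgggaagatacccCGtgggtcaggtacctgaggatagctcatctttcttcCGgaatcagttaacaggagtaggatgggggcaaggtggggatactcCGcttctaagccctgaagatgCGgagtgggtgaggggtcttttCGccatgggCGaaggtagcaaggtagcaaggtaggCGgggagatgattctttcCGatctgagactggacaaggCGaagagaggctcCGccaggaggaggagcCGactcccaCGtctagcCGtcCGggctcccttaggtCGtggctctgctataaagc
Car9, chr4:43506776-43507075, plus strand: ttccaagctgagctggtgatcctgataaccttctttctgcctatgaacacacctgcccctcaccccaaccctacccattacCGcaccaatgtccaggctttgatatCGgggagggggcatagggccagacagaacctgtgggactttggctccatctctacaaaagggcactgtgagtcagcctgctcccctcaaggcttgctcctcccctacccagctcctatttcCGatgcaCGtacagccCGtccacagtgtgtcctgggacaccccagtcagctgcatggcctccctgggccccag
Car12, chr9:66713436-66713735, plus strand: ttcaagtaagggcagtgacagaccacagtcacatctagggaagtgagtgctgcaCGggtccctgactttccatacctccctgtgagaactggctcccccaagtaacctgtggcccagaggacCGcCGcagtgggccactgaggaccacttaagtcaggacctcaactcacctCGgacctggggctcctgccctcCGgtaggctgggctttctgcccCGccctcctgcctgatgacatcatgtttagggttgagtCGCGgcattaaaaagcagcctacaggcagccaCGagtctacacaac
Car14, chr3:95904636-95904935, minus strand: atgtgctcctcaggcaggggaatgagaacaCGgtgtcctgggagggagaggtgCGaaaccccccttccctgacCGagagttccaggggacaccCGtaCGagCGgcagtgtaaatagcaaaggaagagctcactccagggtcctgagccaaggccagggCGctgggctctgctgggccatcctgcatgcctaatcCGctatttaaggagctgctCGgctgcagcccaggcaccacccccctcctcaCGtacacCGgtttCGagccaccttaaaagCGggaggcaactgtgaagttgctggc

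CpG was counted in these windows. The Car4 window held 15 CpG, that of Car12 9 and that of Car9 5, and the window of Car14, which did not change, held 13. The median over 32851 such windows was 7, with quartiles of 3 and 20, so these 4 genes lay within the middle of the distribution. Car7, a cytosolic gene that did not pass, has 3 annotated starts with 28, 21 and 35 CpG. Higher CpG number and a called increase did not go together among these 5 genes, which are too few for a test.

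The windows were searched for 3 motifs on both strands, counted separately. The common core motif of hypoxia-inducible factors, ACGTG, was found once each in the windows of Car4, Car9 and Car14, and in 19.6% of all windows. In Car9 it reads CACGT on the printed strand and begins 18 bases before the start, in Car14 it begins 7 bases before, and in Car4 it begins at base 3 after the start. Its variant GCGTG was absent from the 4 printed windows and was found in the Car7 windows, 2 times in 1 and 1 time in another, and in 32.4% of all windows. A motif of the intestinal homeobox factors CDX, TTTATG, was found at none of the 5 genes and in 11.9% of all windows. A match is a description of letters and not a bound site.

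**Figure D2:**
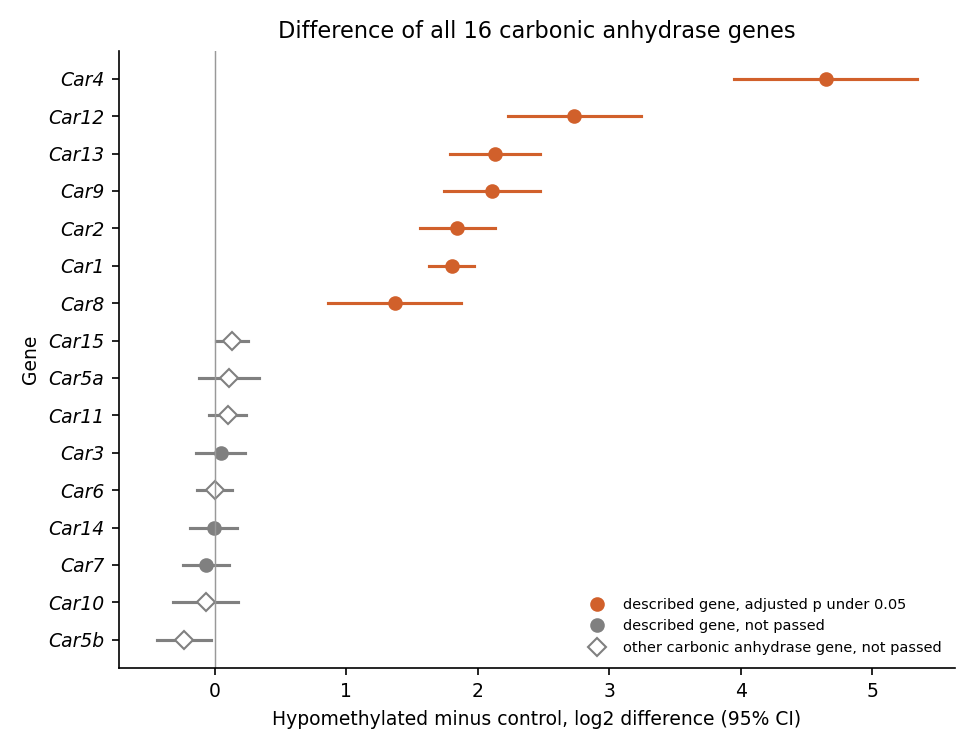
Differences between group means (hypomethylated minus control, log2 scale) of the 16 carbonic anhydrase genes on the array with 95% confidence intervals; filled circles are the 10 genes described and open diamonds the other 6. The 7 called genes lie between 1.37 and 4.65 and the other 9 between -0.24 and 0.13.

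Among the cytosolic members, Car13, Car1 and Car2 rose and Car3 and Car7 did not pass. Car13, a cytosolic isozyme found in the gut and reproductive tract, had control values of -1.05, -1.51 and -0.92 and hypomethylated values of 0.92, 1.01 and 0.98. It rose by 2.13 ± 0.15 (SE), 4.38-fold (95% interval 3.46 to 5.56; limma, adjusted p = 2.94e-04). The hypomethylated tumours lay close together (SD 0.05), and the control tumours were spread more widely (SD 0.31).

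Car2, the widespread fast isozyme, had control values of -0.87, -0.75 and -1.08 and hypomethylated values of 0.75, 1.13 and 0.96. It rose by 1.84 ± 0.12 (SE), 3.59-fold (95% interval 2.95 to 4.37; limma, adjusted p = 2.86e-04). Car1, an abundant enzyme of colonocytes and red blood cells, had control values of -0.94, -1.04 and -0.81 and hypomethylated values of 0.81, 0.90 and 0.88. Its increase was 1.80 ± 0.07 (SE), 3.48-fold (95% interval 3.09 to 3.93), and it had the smallest adjusted p of the 10 genes (limma, 5.82e-05). The difference between the increases of Car2 and Car1 was 0.04 (exact permutation test, p = 0.9). With 3 against 3 tumours this test cannot show that the increases were alike.

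Car3, a slow isozyme of muscle, liver and fat, had control values of -0.04, -0.13 and 0.11 and hypomethylated values of 0.10, 0.04 and -0.06. The groups overlapped, and the difference of 0.04 had a 95% interval from -0.15 to 0.23 (limma, adjusted p = 0.736). Car7, an isozyme best known from brain, had control values of 0.03, -0.07 and 0.15 and hypomethylated values of 0.01, -0.01 and -0.10. Its difference was -0.07 (95% interval -0.24 to 0.11; limma, adjusted p = 0.547).

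Car8 encodes a carbonic anhydrase-related protein that lacks catalytic activity and binds the inositol trisphosphate receptor. Its control values were -0.49, -0.52 and -0.58, and its hypomethylated values were 0.49, 0.64 and 1.38. The third hypomethylated tumour stood above the other two, and the hypomethylated SD was 0.48 against 0.04 in the controls. Car8 rose by 1.37 ± 0.21 (SE), 2.58-fold (95% interval 1.81 to 3.66; limma, adjusted p = 0.00371). Without hypomethylated replicate 3 the difference was 1.09 and the call was kept.

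The difference between the groups, here called the response, was also compared between the 7 genes, as the log2 ratio of a pair of genes within each tumour. All 21 pairs were compared. The response of Car4 exceeded that of each of the other 6 by 1.91 (Car12) to 3.28 (Car8), and in each of these 6 pairs the groups did not overlap. Car12 exceeded Car9, Car2, Car1 and Car8 without overlap, by 0.63 to 1.37, and Car13 exceeded Car1 without overlap, by 0.33. How often pairs of other genes lie apart in this way was not computed. Car13 and Car9 differed by 0.02 (exact permutation test, p = 1). The smallest p, 0.1, is the lowest that 3 against 3 tumours allow, and became 0.191 after Benjamini-Hochberg adjustment over the 21 pairs. No pair could therefore pass, whatever the data, and the test cannot decide whether the responses differed. Within each pair the gene with the larger response was put first, so the direction of each pair follows from that order. Among the hypomethylated tumours, replicate 2 had the highest value of 6 of the 7 genes, all but Car8, and replicate 1 had the lowest value of all 7. Among the controls the lowest tumour differed between genes: replicate 1 for 2 genes, replicate 2 for 3 and replicate 3 for 2.

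Car13, Car1, Car3 and Car2 lie in this order next to each other among the measured genes of mouse chromosome 3, in the RefSeq annotation of GRCm38.p6. Car3, at 0.04, therefore lay between Car1 at 1.80 and Car2 at 1.84. The 4 nearest measured genes on each side, taken after the values of the cluster were seen, did not rise. On the Car13 side Lrrcc1 was lower (-0.54, limma, adjusted p = 0.00529), and Slc7a12 (0.07), E2f5 (-0.10) and Rbis (0.17) did not pass. On the Car2 side Ythdf3 was lower (-0.24, limma, adjusted p = 0.0266), and Gm9733 (-0.12), Gm5150 (-0.03) and Gm5283 (0.11) did not pass. Neighbouring carbonic anhydrase genes are similar in sequence, and whether their probes share transcripts was not tested.

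**Figure D3:**
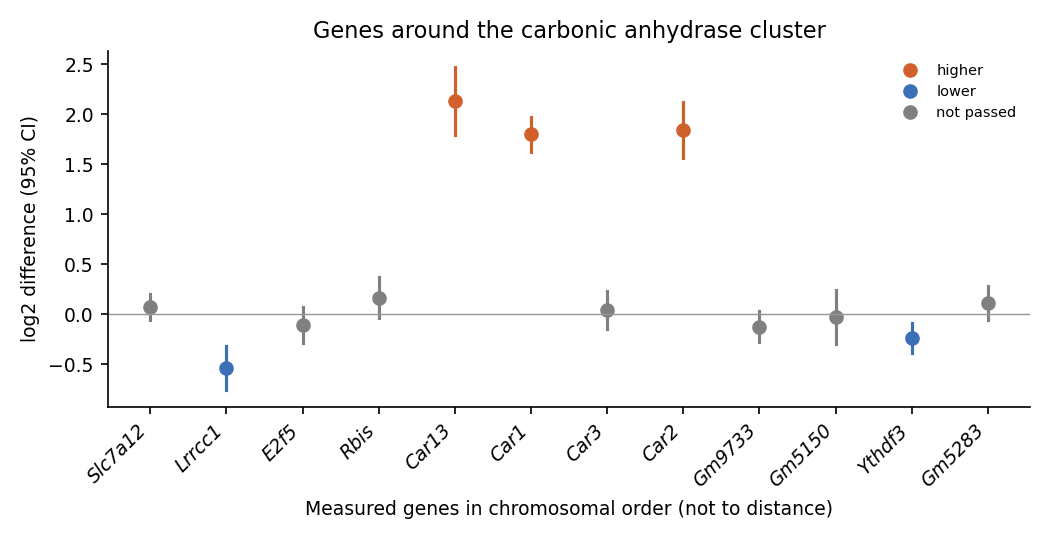
Differences between group means (hypomethylated minus control, log2 scale) with 95% confidence intervals for Car13, Car1, Car3, Car2 and the 4 nearest measured genes on each side, in chromosomal order and not to distance. Car13, Car1 and Car2 lie near 2, and Car3 and the 8 neighbours lie between -0.54 and 0.17.

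The other 6 carbonic anhydrase genes on the array did not pass the test (limma, 0 of 6; 2 at an unadjusted p under 0.05). The mitochondrial isozyme genes Car5a and Car5b differed by 0.11 and -0.24, and Car6, the secreted isozyme of saliva, by less than its SE of 0.06. Car10 and Car11, which encode proteins without activity, differed by -0.07 and 0.10, and Car15, a membrane-anchored isozyme, by 0.13. Car5b (limma, adjusted p = 0.0799) and Car15 (limma, adjusted p = 0.0925) had groups that did not overlap. With the shared description number as a random block, Car5b passed as lower (limma, adjusted p = 0.0389) and Car15 as higher (limma, adjusted p = 0.0450). That block lies within the genotypes and its estimated correlation was below 0 (-0.17), which lowered the SE, of Car5b from 0.09 to 0.07, so these calls are no support from a correction for shared animals. Car15 also passed with array weights (limma, adjusted p = 0.0446), a fit in which control replicate 1 had a weight of 7.69 and the other 5 arrays had weights of 0.51 to 0.99. None of these 6 genes, and of the 10 only Car1, Car2, Car9, Car12 and Car13, lay on the coarser number step that was taken to mean values of 8 or above in all tumours before centring. Car4 and Car8 were off that step, so by this inference at least 1 of their values was below 8, and a fold against controls at the floor of the array would be understated.

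Transporters that carry bicarbonate or exchange it for chloride changed in part. Of 19 measured genes 5 were higher and 1 lower, with a median difference of 0.12. The higher share was 26.3%, against 10.7% of all genes, and the lower share 5.26%, against 21.3%. Slc26a3, the apical chloride-bicarbonate exchanger of colonocytes, rose by 4.78 ± 0.37 (SE; limma, adjusted p = 3.72e-04), an increase of the size seen for Car4. Its control values were -2.56, -2.78 and -1.73 and its hypomethylated values 1.73, 2.94 and 2.60, with the third control highest, as for Car4. Slc26a2, a sulfate transporter, rose by 2.13, the chloride and bicarbonate channel gene Cftr by 1.32 and the sodium-bicarbonate cotransporter gene Slc4a4 by 0.78. Slc26a7 rose by 0.26 and Slc26a9 fell by 0.80. The lowest difference of the list was that of Best2 (-0.91, limma, adjusted p = 0.0679), which did not pass and whose groups overlapped. Slc26a7, Slc26a9 and Best2 were named after their values were seen. The call of Slc26a7 was kept only without hypomethylated replicate 1 among the 6 fits that left out a tumour, and without control replicate 2 the lower genes numbered 2. Lower genes also numbered 2 with a replicate block, the description number as a random block, array weights and an adjusted p under 0.10.

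Among 18 measured genes of proton and lactate export 4 were higher and 3 lower, with a median near 0. The higher share was 22.2%, against 10.7% of all genes, and the lower share of 16.7% was below the 21.3% of all genes. The sodium-proton exchanger gene Slc9a2 rose by 2.95 ± 0.20 (SE; limma, adjusted p = 3.05e-04), the lactate transporter gene Slc16a1 by 0.98, the scaffold gene Slc9a3r1 by 0.86 and Slc9a4, another sodium-proton exchanger gene, by 0.68. Slc9a9, an endosomal exchanger gene, fell by 0.85, Slc9a3, the main apical sodium-proton exchanger gene, by 0.62 and the scaffold gene Pdzk1 by 0.24. Slc9a4 and Pdzk1 were named after their values were seen. Leaving out control replicate 1 or 2 left 0 lower genes, and leaving out control replicate 3 left 1. The call of Slc9a4 was lost without any one control tumour, and that of Slc9a9 without control replicate 1 or control replicate 2. Those of Slc9a3 and Pdzk1 were lost without any one control tumour and without hypomethylated replicate 3, and that of Pdzk1 also without hypomethylated replicate 1.

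Car9 and Car12 are known hypoxia targets, and 20 genes of the hypoxia response were measured beside them. Of these 4 were higher and 1 lower, and the median difference was 0.11. The higher share was 20.0%, against 10.7% of all genes, and the lower share of 5% was below the 21.3% of all genes. Ankrd37, a hypoxia-induced ankyrin repeat gene, rose by 0.88, Epas1, the gene of the factor HIF-2 alpha, by 0.83, the glucose transporter gene Slc2a1 by 0.37 and the glycolysis gene Pgk1 by 0.27. Hif1a, the gene of HIF-1 alpha, differed by 0.11 (SE 0.07; limma, adjusted p = 0.284), and Vegfa, a target that drives vessel growth, by -0.08 (SE 0.08; limma, adjusted p = 0.485). Vhl, whose product marks the HIF alpha subunits for degradation, fell by 0.17 and was named after its value was seen. The lowest differences of the list were those of the hypoxia-induced genes Ndrg1 (-0.66; limma, adjusted p = 0.0640) and Bnip3 (-0.41; limma, adjusted p = 0.0519), which did not pass and were also named after their values were seen, though in both the groups lay apart. Both passed as lower without hypomethylated replicate 2 (limma, adjusted p = 0.00745 and 0.0350). The largest increase in this list was thus smaller than those of Car9 and Car12. The higher genes numbered 2 without control replicate 1. Vhl lost its call in all 6 fits that left out a tumour, and 3 other genes were lower without hypomethylated replicate 2. The calls of Pgk1 and Slc2a1 were lost without control replicate 1, that of Pgk1 also without control replicate 3 and that of Slc2a1 without control replicate 2 or hypomethylated replicate 2.

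Markers of the cells that could carry these transcripts moved as follows. Of 15 markers of absorptive colonocytes, a list without carbonic anhydrases, 13 (86.7%, against 10.7% of all genes) were higher and none lower (limma; none lower at an unadjusted p under 0.05), with a median of 2.73. Slc51b, a bile acid transporter subunit gene, rose by 3.22 and Slc26a3 as above. The mean of the list ran from -1.90 to -0.86 in the controls, highest in replicate 3, and from 0.83 to 1.68 in the hypomethylated tumours, highest in replicate 2 and lowest in replicate 1. General epithelial markers were higher in 7 of 9 (77.8%) with a median of 0.34, among them Vil1 (1.02) and Lgals4 (0.61). Epcam, named after its value was seen, differed by 0.06 with overlapping groups and did not pass (limma, adjusted p = 0.453). The lowest difference of this list was -0.02. Higher epithelial markers numbered 5 to 6 in the fits without 1 tumour and 4 at an adjusted p under 0.01. All 9 lay on the coarser step, taken as values of 8 or above in all tumours. The part of epithelial content in the increases of the carbonic anhydrase genes was not tested.

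Red blood cells hold much Car1 and Car2. Of 5 measured erythroid markers none was higher and 1, Alas2 of haem synthesis, was lower (-0.35), a share of 20.0% beside 21.3% of all genes, and the range of the list mean was 0.01 to 0.07 in the controls and -0.05 to 0.08 in the hypomethylated tumours. The globin genes had no probe set named for 1 gene alone and were not used here. Muscle and fat hold Car3. No marker of skeletal muscle passed (limma, 0 of 10; 0 at an unadjusted p under 0.05). Of 9 adipocyte markers Cidec (1.20), Pck1 (0.62) and Retn (0.26) were higher and Lipe (-0.26) lower. The higher share was 33.3%, against 10.7% of all genes, and the lower share of 11.1% was below the 21.3% of all genes. The defining markers Adipoq and Plin1 differed by 0.09 and 0.10 and did not pass. Pck1, Lipe, Adipoq and Plin1 were named after their values were seen. The higher adipocyte markers numbered 1 without control replicate 2, hypomethylated replicate 2 or hypomethylated replicate 3, and Lipe lost its call without control replicate 1 or 3 and without hypomethylated replicate 3. The calls of Pck1 and Retn were each lost in 4 of the 6 fits without 1 tumour.

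Markers of stromal cells are read against the 21.3% of all genes called lower. Of 12 fibroblast markers 8 (66.7%) were lower and 1, Fap, was higher (0.33), with Pdgfrb at -1.22 and Col6a3 at -0.78. Their mean ran from 0.09 to 0.44 in the controls and from -0.54 to -0.08 in the hypomethylated tumours. Among 10 smooth muscle markers 5 (50%) were lower, with Kcnmb1 at -0.85 and Tagln at -0.58, and of 10 endothelial markers 5 (50%) were lower and 1, Tek, was higher (0.55), with Cdh5 and Emcn both at -0.91. The means of the smooth muscle list (0.11 to 0.29 in controls, -0.28 to -0.08 in hypomethylated tumours) and of the endothelial list (0.04 to 0.18 and -0.36 to -0.01) also lay apart. Macrophage markers were lower in 4 of 11 (36.4%), with C1qc at -0.92 and Ms4a7 at -0.66, but the list means overlapped, running from -0.03 to 0.41 in the controls and from -0.72 to 0.04 in the hypomethylated tumours. Of 8 enteric neuron and glia markers 1, Tubb3, was lower (-0.28), a share of 12.5% that is below that of all genes, and the list median was 0.01. Fap and Tek were named after their values were seen. Without control replicate 2 or 3 there were 5 lower fibroblast markers, and without hypomethylated replicate 3 there were 4. Over all fits without 1 tumour their number ranged from 4 to 11. Lower smooth muscle markers numbered 3 without hypomethylated replicate 2 or hypomethylated replicate 3. Lower endothelial markers numbered 3 without control replicate 2 or 3 and without hypomethylated replicate 2, and 2 without hypomethylated replicate 3. Over all fits without 1 tumour they numbered 2 to 7. Lower macrophage markers numbered 9 without hypomethylated replicate 1 and 0 without any other single tumour. Among neuron and glia markers 2 were lower without control replicate 2, and 1 was higher without control replicate 3. The part of stromal cells in the increases of the carbonic anhydrase genes was not tested.

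**Figure D4:**
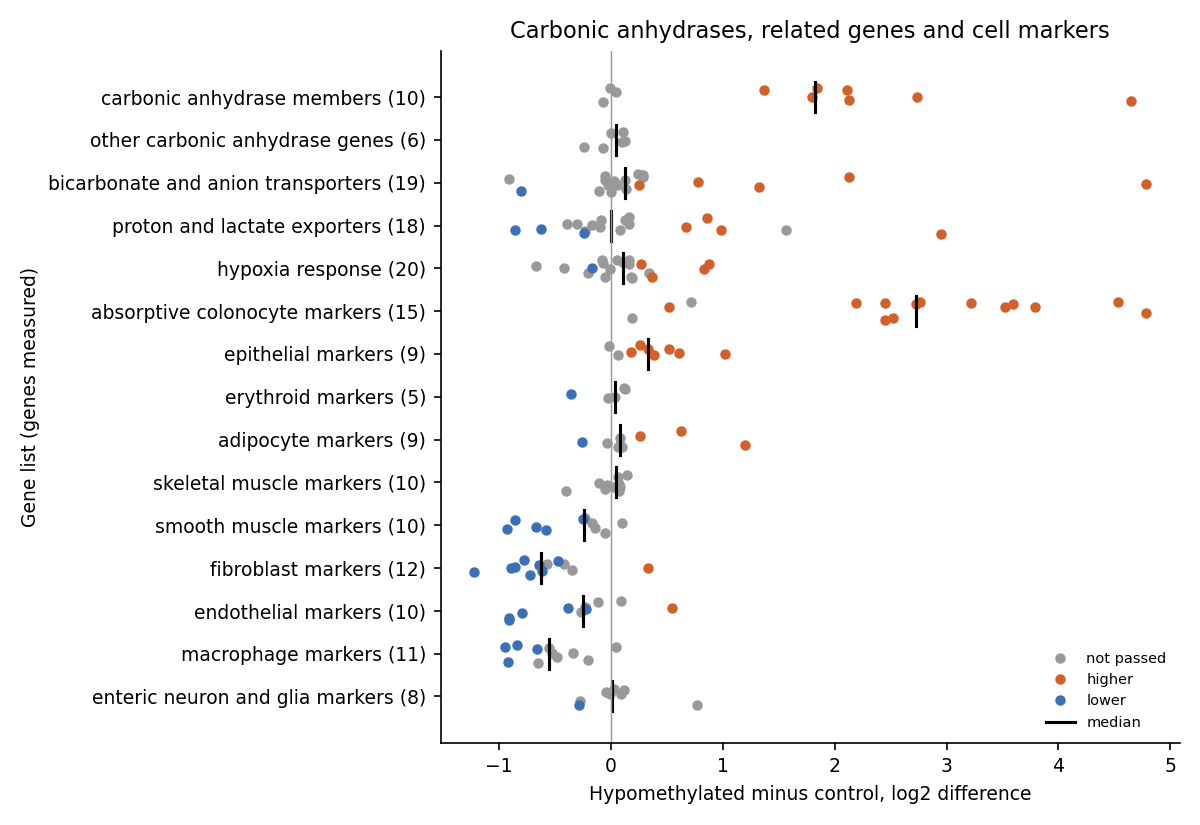
Differences between group means (hypomethylated minus control, log2 scale) of single genes in each list, with the list median as a black line; orange points passed the test as higher, blue points as lower and grey points did not pass. The medians are 1.82 for the 10 carbonic anhydrase genes, 2.73 for absorptive colonocyte markers, 0.11 for the hypoxia response and -0.62 for fibroblast markers.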

How the data were processed

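RNA of the 6 tumours was extracted with a column kit, biotin-labelled and hybridised to arrays, per the labels' protocols. The deposited log2 values form 1 table of 28856 probe sets, in which each probe set has a median of 0 over the arrays (100% of medians within 1e-06 of 0). The log base was inferred, and the normalization between arrays is not given in the sources used here. Probe sets were named by the platform annotation: 21789 had 1 gene symbol and were used, 1621 had several and 5446 none. Symbols were checked by Entrez number against RefSeq names (GRCm38.p6), and none changed. Probe sets were averaged per gene, giving 19938 genes.

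The groups were compared with limma (lmFit and eBayes without a trend, two-sided, Benjamini-Hochberg over all genes, no filter, no block) in R 4.3.3 with limma 3.58.1. Confidence intervals are unadjusted, at 95%. The 10 genes, the 15 gene lists and the rules were chosen with earlier results of these data known. The rule for named genes took all carbonic anhydrase genes, up to 4 called genes of each related list and up to 2 of each marker list by smallest p, and 5 genes in any case; others are said to be named after their values were seen. Within the printed precision the numbers of 96.8% of probe sets come in steps of 2 to the power of minus 21, and those of 47.0% in coarser steps, minus 20; the coarser step was taken as 8 or above before centring, an inference that chance can also give. Scripts were tested on simulated data. Alternatives were a replicate block, the shared description number as a random block, quantile normalization, centring arrays, array weights, robust eBayes, genes with 1 probe set, genes on the coarser step, other thresholds and leaving out each tumour.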

Additional observations from a re-analysis of the deposited data

How the results depend on the processing

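Each result was recomputed under 16 alternatives. The 7 carbonic anhydrase genes called higher were called in every alternative that tested them, and no gene of the 10 was called lower in any. The restriction to the coarser number step tested only Car1, Car2, Car9, Car12 and Car13, and called all 5. Differences of Car4 ranged from 3.94 (quantile normalization) to 5.01 (without control replicate 3), of Car12 from 2.39 to 2.97, of Car13 from 1.81 to 2.25, of Car9 from 1.84 to 2.23, of Car2 from 1.66 to 1.94, of Car1 from 1.57 to 1.86 and of Car8 from 1.09 to 1.54. The largest adjusted p of any of them was 0.0159, for Car8 without control replicate 1. Same-numbered tumours of the 2 groups had correlations of their deviations of -0.29, -0.31 and -0.22. Without the correlations of differently numbered tumours beside them, these values cannot settle whether the replicate numbers of the titles pair the tumours. With the number as a replicate block, 7 of the 10 genes were again higher.

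Signs turned where a difference was near 0. In the fits without 1 tumour Car3 ranged from -0.0127 to 0.108, Car14 from -0.0741 to 0.0409, Car6 from -0.0284 to 0.0226 and Car10 from -0.141 to 0.0241. Car6 was -0.00346 under quantile normalization and -0.0323 with array weights. The replicate block ended the calls of Slc26a7, Slc9a4, Pdzk1, Vhl, Pgk1, Slc2a1, Retn, Lipe and Ms4a7, and quantile normalization those of Slc9a3 and Vhl. The block, the description number as a random block and the coarser step each added lower calls of Ndrg1 and Bnip3, array weights that of Ndrg1, and quantile normalization and robust eBayes that of Bnip3. Hypoxia genes called lower numbered 4 and proton and lactate export genes 5 with the description number as a random block, whose numbers each lie within 1 genotype. With array weights 7 hypoxia genes were called higher and 3 lower, against 4 and 1 in the main fit. With the replicate block 2 were called higher and 2 lower. Over all genes, higher calls fell from 2124 to 1192 at an adjusted p under 0.01 and ranged from 1407 to 2323 without 1 tumour. Lower calls fell from 4256 to 2714 with the replicate block and 2319 at an adjusted p under 0.01, and ranged from 2792 to 4270 without 1 tumour. The cause was not tested. Arrays carry no counts, no background signal was used, and so a floor could not be identified.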
